A study of Mus musculus with 4 samples.

Results

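Tcf7, Lef1, Satb1, Bcl11b, Tox and Myb encode transcription regulators that set up and keep T cell identity. The accessible regions described here are those of the series' joint ATAC-seq list that overlapped the body of one of these 6 genes or the 50 kb on either side of it, together with those up to 1 Mb past the 3' end of Bcl11b. There were 98 regions in the 6 gene windows and 39 further regions past Bcl11b, 137 of the 64525 regions in the list (0.212%). The members were set by gene name and distance, not by a measured value. ATAC-seq finds open chromatin by letting a transposase cut and tag it. The cells were naive CD4 T cells, which are resting helper T cells before their encounter with antigen, from the spleen and lymph nodes of mice labelled as DDX55 KO (2 libraries) and WT (2 libraries). Ddx55 encodes a DEAD-box RNA helicase. The labels do not say in which cells or by which allele the gene was deleted, how old the mice were, or whether the libraries of a genotype came from separate animals. The list pools all 4 libraries and carries only positions, so DDX55 KO and WT were not compared, the depth per library is unknown, and no value below has a replicate error.

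As background, Tcf7 (TCF-1) and Lef1 are related HMG-box factors that bind the same DNA motif, act downstream of Notch and Wnt signals and keep naive T cells in their resting, long-lived state. Bcl11b is a zinc finger factor that commits thymus progenitors to the T lineage, and in mouse its gene is known to be switched on through distal DNA in the gene desert past its 3' end. Satb1 organises chromatin in thymocytes, Tox is an HMG-box factor needed for CD4 T cell development, and Myb is a DNA-binding activator of blood progenitors and thymocytes. An accessible region marks DNA that proteins can reach, at a promoter, an enhancer or another element, and does not by itself show which.

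T cell markers were accessible at their ends more often than protein-coding genes in all, of which 52.6% had a region within 1 kb of an end. Of 13 T cell markers, Cd3e, Cd4, Ccr7 and Il7r among them, 13 had a region within 1 kb of a gene end, whereas 1 of 6 B cell markers and 0 of 3 natural killer cell markers did. Among 5 myeloid markers 2 had one, among 3 red cell markers 2, and of the CD8 genes Cd8b1 had one and Cd8a did not. These last 3 lists were near the share of all genes. All lists but that of the T cell markers hold 6 genes or fewer, so their counts are a description. Genes were counted singly, so neighbours such as Cd3d, Cd3e and Cd3g on chromosome 9 can share regions.

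The 250 bases before the annotated start sites show where the open DNA lay there. RefSeq (GRCm38.p6, the assembly that mm10 names) gave start sites for 5 members, 13 in all, and Tox had none in the table. The most upstream site of a gene is the outermost one in this table. At Tcf7 and Bcl11b the longest gene model reached further out than that site, so their windows lay inside the gene model. Of these 13 sites, 3 were covered by a region: the most upstream site of Satb1, a further site of Satb1 and an inner site of Lef1. The 250 bases before these 3 sites are shown first because the list had a region over them, followed by those before another site of Satb1, which lay 121 bp from a region that covered part of this window. They lie at chr17:51833291-51833540 (minus strand, 250 bases inside a region), chr17:51826589-51826838 (minus strand, 217 bases inside), chr3:131112541-131112790 (plus strand, 250 bases inside) and chr17:51812185-51812434 (minus strand, 130 bases inside). All are written 5' to 3', with capitals for letters of a searched motif.
Satb1 upstream site: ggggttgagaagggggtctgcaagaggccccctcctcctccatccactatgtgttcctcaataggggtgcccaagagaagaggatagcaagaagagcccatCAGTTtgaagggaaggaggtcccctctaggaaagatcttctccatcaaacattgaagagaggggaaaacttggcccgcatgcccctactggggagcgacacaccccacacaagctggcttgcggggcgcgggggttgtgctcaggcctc
Satb1 inner site: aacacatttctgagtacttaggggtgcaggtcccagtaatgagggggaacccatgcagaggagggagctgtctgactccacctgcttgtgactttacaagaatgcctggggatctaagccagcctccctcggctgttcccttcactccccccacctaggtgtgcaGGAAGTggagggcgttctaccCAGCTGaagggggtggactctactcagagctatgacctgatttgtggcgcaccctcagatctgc
Lef1 inner site: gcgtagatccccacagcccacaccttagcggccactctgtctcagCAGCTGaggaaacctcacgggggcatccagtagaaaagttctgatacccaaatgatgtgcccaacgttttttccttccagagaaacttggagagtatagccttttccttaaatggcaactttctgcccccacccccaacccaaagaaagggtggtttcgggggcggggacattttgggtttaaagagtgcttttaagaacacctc
Satb1 partly covered window: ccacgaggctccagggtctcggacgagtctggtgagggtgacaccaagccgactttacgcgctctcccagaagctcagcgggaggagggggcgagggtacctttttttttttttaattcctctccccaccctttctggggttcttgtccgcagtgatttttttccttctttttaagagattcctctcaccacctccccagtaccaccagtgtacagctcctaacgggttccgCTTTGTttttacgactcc

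Of the 9 remaining windows, none of which had a base inside a region, 5 are shown to cover the members with an uncovered start. They are the most upstream site of Lef1 (chr3:131110047-131110296, plus strand), its most inner site (chr3:131156044-131156293, plus strand), the more inner site of Tcf7 (chr11:52282596-52282845, minus strand), and the sites of Bcl11b (chr12:108003415-108003664, minus strand) and Myb (chr10:21160985-21161234, minus strand).
Lef1 upstream site: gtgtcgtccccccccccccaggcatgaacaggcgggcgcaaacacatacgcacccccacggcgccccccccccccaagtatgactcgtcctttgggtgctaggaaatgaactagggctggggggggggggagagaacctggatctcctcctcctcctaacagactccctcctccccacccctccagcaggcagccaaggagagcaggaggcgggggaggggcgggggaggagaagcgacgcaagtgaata
Lef1 most inner site: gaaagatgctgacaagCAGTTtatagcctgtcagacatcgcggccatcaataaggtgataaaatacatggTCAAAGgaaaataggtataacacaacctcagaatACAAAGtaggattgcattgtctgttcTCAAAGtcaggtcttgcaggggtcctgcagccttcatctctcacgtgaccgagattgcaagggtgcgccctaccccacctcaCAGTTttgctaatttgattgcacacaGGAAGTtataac
Tcf7 inner site: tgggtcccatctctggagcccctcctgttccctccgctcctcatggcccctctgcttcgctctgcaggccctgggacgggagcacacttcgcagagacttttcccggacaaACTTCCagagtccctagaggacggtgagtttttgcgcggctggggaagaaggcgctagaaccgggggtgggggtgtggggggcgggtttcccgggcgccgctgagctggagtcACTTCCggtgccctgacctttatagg
Bcl11b site: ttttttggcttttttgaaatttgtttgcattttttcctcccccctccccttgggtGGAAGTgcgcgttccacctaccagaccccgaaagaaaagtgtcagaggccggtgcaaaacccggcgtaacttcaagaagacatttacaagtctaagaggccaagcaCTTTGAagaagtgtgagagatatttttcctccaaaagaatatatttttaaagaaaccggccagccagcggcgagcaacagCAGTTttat
Myb site: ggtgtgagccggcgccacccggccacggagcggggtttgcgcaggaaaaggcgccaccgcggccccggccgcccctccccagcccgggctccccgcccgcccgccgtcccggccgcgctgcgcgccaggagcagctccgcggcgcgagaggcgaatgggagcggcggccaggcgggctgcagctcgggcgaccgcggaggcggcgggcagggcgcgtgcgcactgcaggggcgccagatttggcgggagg

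The 8 motifs searched on both strands were the TCF/LEF letters CTTTGT, their variant spelled CTTTGA, the ETS letters GGAAGT, the RUNX letters TGTGGT, the E-box spelled CAGCTG, the GATA letters AGATAA, the MYB letters AACTG and the CCAAT box. Matches of different motifs did not overlap in the windows shown, and a match describes the letters only. At the Satb1 inner site an ETS match began 85 bases and an E-box match 64 bases before the start, and the Lef1 inner site held an E-box match 205 bases before it. In the 21262 such windows of protein-coding genes, the ETS letters were present in 20.4% and the E-box in 12.1%. The partly covered Satb1 window held a TCF/LEF match 18 bases before the start, and the window of the most inner Lef1 site, itself 1116 bp from the nearest region, held a TCF/LEF match 146 bases and matches of its variant 180 and 120 bases before the start, as well as MYB and ETS matches. The TCF/LEF letters occurred in 14.9% of all windows and the variant in 12.7%. The Bcl11b window held a match of the TCF/LEF variant, of ETS (20.4%) and of MYB (36.6% of all windows), and the Tcf7 inner window held ETS matches at 2 places, 139 and 26 bases before the start. The Satb1 upstream window held a MYB match. Of the 4 windows not shown, that of the most upstream listed Tcf7 site held an E-box match 159 bases before the start. That window lay inside the longest Tcf7 gene model. The innermost Satb1 window, which overlaps the partly covered one, held the same TCF/LEF match and an ETS match 72 bases before its start. The other 2 held none. The windows of Myb and of the most upstream Lef1 site held none of the 8 motifs.

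At 4 of the 5 members with an annotated start, no region covered the most upstream listed start site. At Tcf7, Lef1 and Bcl11b a region lay within 1 kb of that site, and at Myb the nearest lay 1658 bp away. At Bcl11b a region did cover the outer end of the longest gene model. Satb1 (gene ID 20230, minus strand) was the exception, with its most upstream listed site covered by a region of 1249 bp at chr17:51833101-51834349. Across 17491 protein-coding genes with a start site in the table the most upstream site was covered in 44.3% and any site in 46.1%; in a further 8.13% it was not covered but a region lay within 1 kb. Of the genes with a region within 1 kb of that site, 84.5% had the site covered; of the 4 such members (Satb1, Tcf7, Bcl11b and Lef1), 1 had. With so few genes these counts are a description, and for Bcl11b the count rests on the listed site.

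The Tcf7 start (gene ID 21414) was flanked on both sides. A region of 1040 bp, the widest of that locus, ended 448 bp upstream of the most upstream site, and a region of 366 bp began 427 bp downstream of it and 8 bp downstream of the inner site. Both sites and the outer end of the gene model lay in the gap between them. At Lef1 (gene ID 16842) the regions lay 913 bp inside the gene (217 bp wide) and, further in, over the inner start site (1249 bp, chr3:131111955-131113203). At Bcl11b (gene ID 58208) a region of 380 bp, chr12:108004063-108004442, lay 649 bp upstream of the start site and over the outer end of the longest gene model. Myb (gene ID 17863) had its nearest region, 592 bp wide at chr10:21158735-21159326, 1658 bp inside the gene. Tox (gene ID 252838), for which the tables give no strand, had a region of 589 bp, chr4:6991022-6991610, over its higher-coordinate end.

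**Figure D1:**
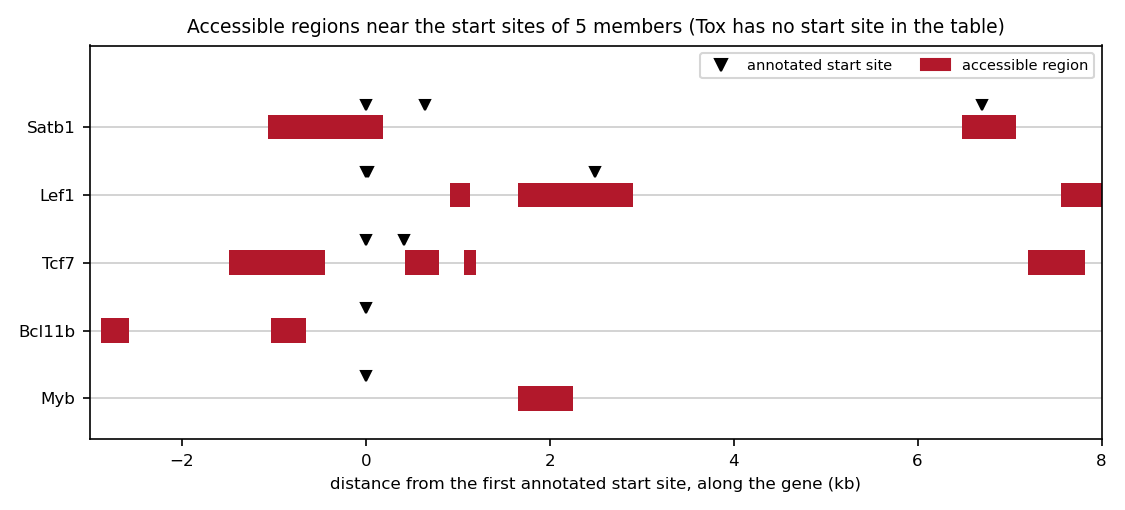
Accessible regions (bars) and annotated start sites (triangles) near the start of 5 members; the horizontal axis gives the distance in kb from the most upstream start site, along the gene. Only the Satb1 bar covers the listed site at 0. The Tcf7 bars end 448 bp before it and begin 427 bp after it. The Bcl11b bar nearest to 0 covers the outer end of the longest gene model.

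Base composition of the members' windows ranged widely. G and C made up 58.0%, 56.4% and 50.8% of the 3 covered windows, and 44.8% (Bcl11b and the most inner Lef1 site) to 81.2% (Myb) of the 10 uncovered ones, which lay both below and above the covered ones. The window of the most upstream listed Tcf7 site held 76.0%, and that of an uncovered Satb1 site, itself 454 bp from a region, held 80.8%. Both windows lay inside the gene models. Over all genes the median was 60.4% at covered and 49.6% at uncovered sites. These medians take only the most upstream site of each gene, whereas the members' values include inner sites. The share of most upstream sites covered was 3.45% where G and C were under 40%, 69.8% between 60 and 70%, and 39.7% of 806 sites at 75% or more; in that last class a region lay within 1 kb without covering the site in 32.4%, against 7.51% between 60 and 70%. The part of base composition in the position of the members' regions was not tested.

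**Figure D2:**
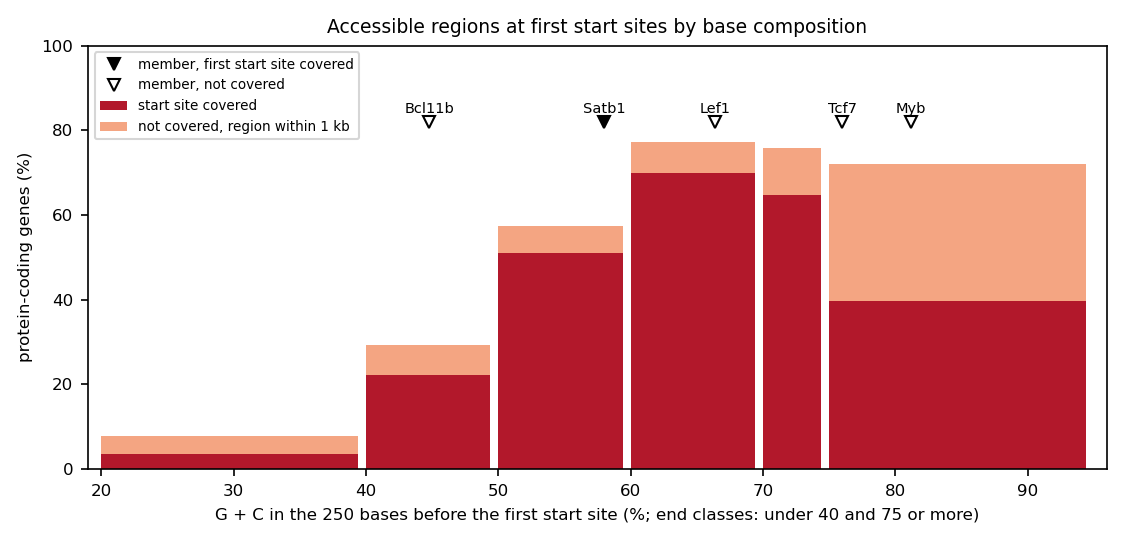
Share of protein-coding genes (vertical axis, %) whose most upstream start site was covered by a region (dark) or had a region within 1 kb only (light), by G and C content of the 250 bases before it (horizontal axis, %; bar widths follow the classes). Triangles give the G and C content of the members; Tcf7 and Myb stand in the class at 75% or more, where 39.7% of sites were covered.

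Each of the 6 windows held more regions per length than the median protein-coding gene, and Tcf7, Lef1 and Satb1 stood highest. Per 100 kb of gene and flanks there were 12.4 regions at Tcf7, 9.81 at Lef1, 9.64 at Satb1, 5.92 at Tox, 5.16 at Bcl11b and 5.14 at Myb, against a median of 3.57 (quartiles 1.75 and 5.84) over 21883 protein-coding genes. All 6 members were above that median, where 50% of genes are by definition. For Myb this depended on the window: it had 2.63 regions per 100 kb with flanks of 20 kb and 2.77 in the body alone, below the medians of 3.69 and 3.4 for all genes. Of all protein-coding genes, 98.9% had a lower density than Tcf7, 95.7% than Lef1, 95.2% than Satb1, 75.9% than Tox, 68.5% than Bcl11b and 68.4% than Myb. The upper 3 members and Tox were above the upper quartile, and Bcl11b and Myb were within the quartiles. These counts carry no replicate error, so no order is read within the close pairs of Lef1 and Satb1 and of Bcl11b and Myb.

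In plain counts the members had 24 regions at Tox, 21 at Lef1, 19 at Satb1, 17 at Tcf7, 10 at Bcl11b and 7 at Myb, against a median of 5 per protein-coding gene (quartiles 2 and 8). At least 10 regions were found at 5 of the 6 members and at 14.9% of all genes. Longer genes have more room for regions, so each was also set beside genes of 0.5 to 2 times its length. Tcf7 had more than 99.4% of its 7103 like-sized genes, Lef1 more than 98.9%, Satb1 more than 98.5%, Tox more than 96.6%, Bcl11b more than 76.8% and Myb more than 62.6%. A region within 1 kb of either gene end was present at 5 of 6 members, all but Myb, and at 52.6% of protein-coding genes.

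**Figure D3:**
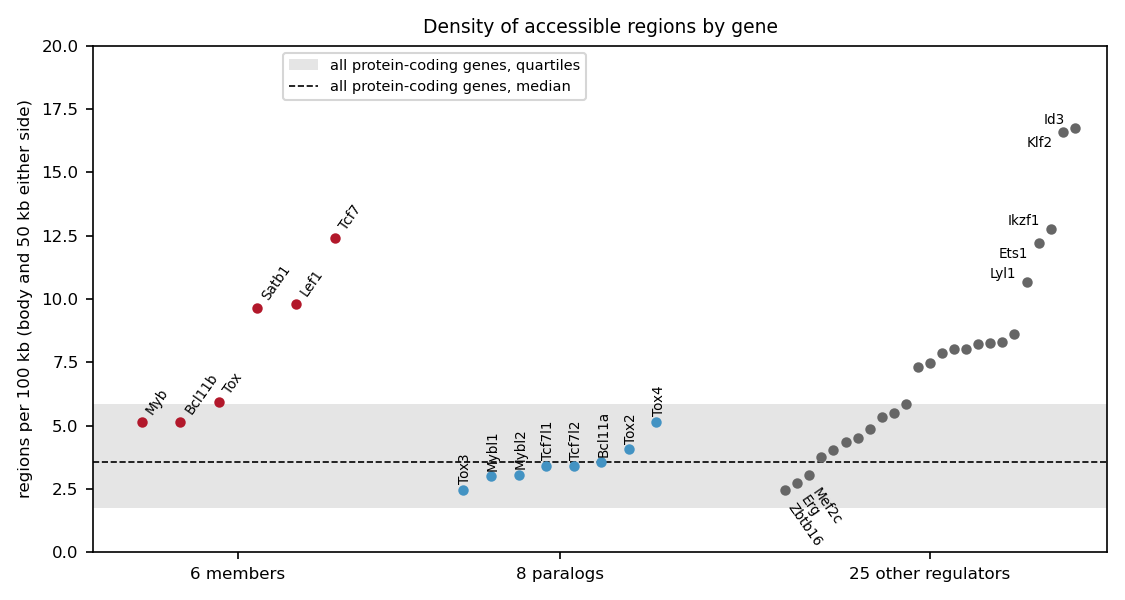
Accessible regions per 100 kb of gene body and 50 kb flanks (vertical axis) for the 6 members, 8 paralogs and 25 other regulators of T and blood cell development, one point per gene; the band and dashed line give the quartiles and median of all protein-coding genes. The members run from 5.14 at Myb to 12.4 at Tcf7, all above the median of 3.57.

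Tcf7 (chromosome 11, 52246527 to 52283383, 36.9 kb) had its regions on all sides. Of 17 regions, 6 overlapped the gene, 7 lay upstream and 4 downstream. The widest after the one at the start, 835 and 765 bp, lay 30.5 and 16.1 kb upstream; the 835 bp region and those of 174 and 327 bp beside it overlapped the long noncoding RNA gene Gm30217. Within the gene, regions of 620, 435, 424 and 232 bp followed the start, and the stretch from there to the 3' end was empty: the longest gap, 19.6 kb, ran across it. Of the 4 downstream regions, 2 overlapped Skp1, a ubiquitin ligase subunit gene whose model overlaps the end of Tcf7, and the one of 519 bp (chr11:52231757-52232275) covered a start site of Skp1.

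Lef1 (chromosome 3, 131110297 to 131224357, 114 kb) had 15 of its 21 regions inside the gene, 3 upstream and 3 downstream. They formed a chain through the body in which wide regions stood toward both ends. Regions of 1249, 467 and 635 bp lay near the start, regions of 817, 719 and 997 bp toward the 3' end, and regions of 171 to 378 bp between them. All 3 downstream regions overlapped Hadh, a mitochondrial fatty acid oxidation gene, and the outermost, 922 bp wide, covered a start site of Hadh.

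Satb1 (chromosome 17, 51736187 to 51833290, 97.1 kb) held the widest region of all 6 windows, away from the gene. This region of 1797 bp, chr17:51878988-51880784, lay 45.7 kb upstream and overlapped no annotated gene. Of the 52369 regions on assembled chromosomes that were not within 1 kb of a protein-coding gene end, 0.115% were wider. Inside the gene there were 11 regions, the widest after the one at the start being 1185 bp (chr17:51762705-51763889) and 836 bp (chr17:51813825-51814660). A pair of regions 40 bp apart, 485 and 156 bp wide, lay just past the 3' end, and 4 regions lay upstream.

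Tox (chromosome 4, 6686353 to 6991557, 305 kb) had 21 of its 24 regions inside the gene, 3 beyond the lower-coordinate end and 0 beyond the other. The widest, 1323 bp at chr4:6901398-6902720, lay 89.5 kb inside from the higher-coordinate end; 0.716% of regions away from gene ends were wider. The 15 regions nearer to the higher-coordinate end had 6 counterparts nearer to the other end. The longest gap, 40.1 kb, ran across the lower-coordinate end of the gene.

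Myb (chromosome 10, 21124930 to 21160984, 36.1 kb) stood apart with 1 region in its body, where the other members had 6 to 21. Genes of like length had a median of 1 region in the body, which Myb equalled. Of the other 6 regions, 5 lay upstream, 17.4 to 43.4 kb from the gene, and the widest of these, 635 bp, overlapped the long noncoding RNA gene Gm40608. In mouse and human the DNA between Myb and its upstream neighbour is known to hold enhancers of Myb used in red cell precursors; the list does not say whether these are among the regions. The remaining region, 715 bp and 47.3 kb downstream, lay in Ahi1, and the 81.1 kb between it and the region near the Myb start held none.

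**Figure D4:**
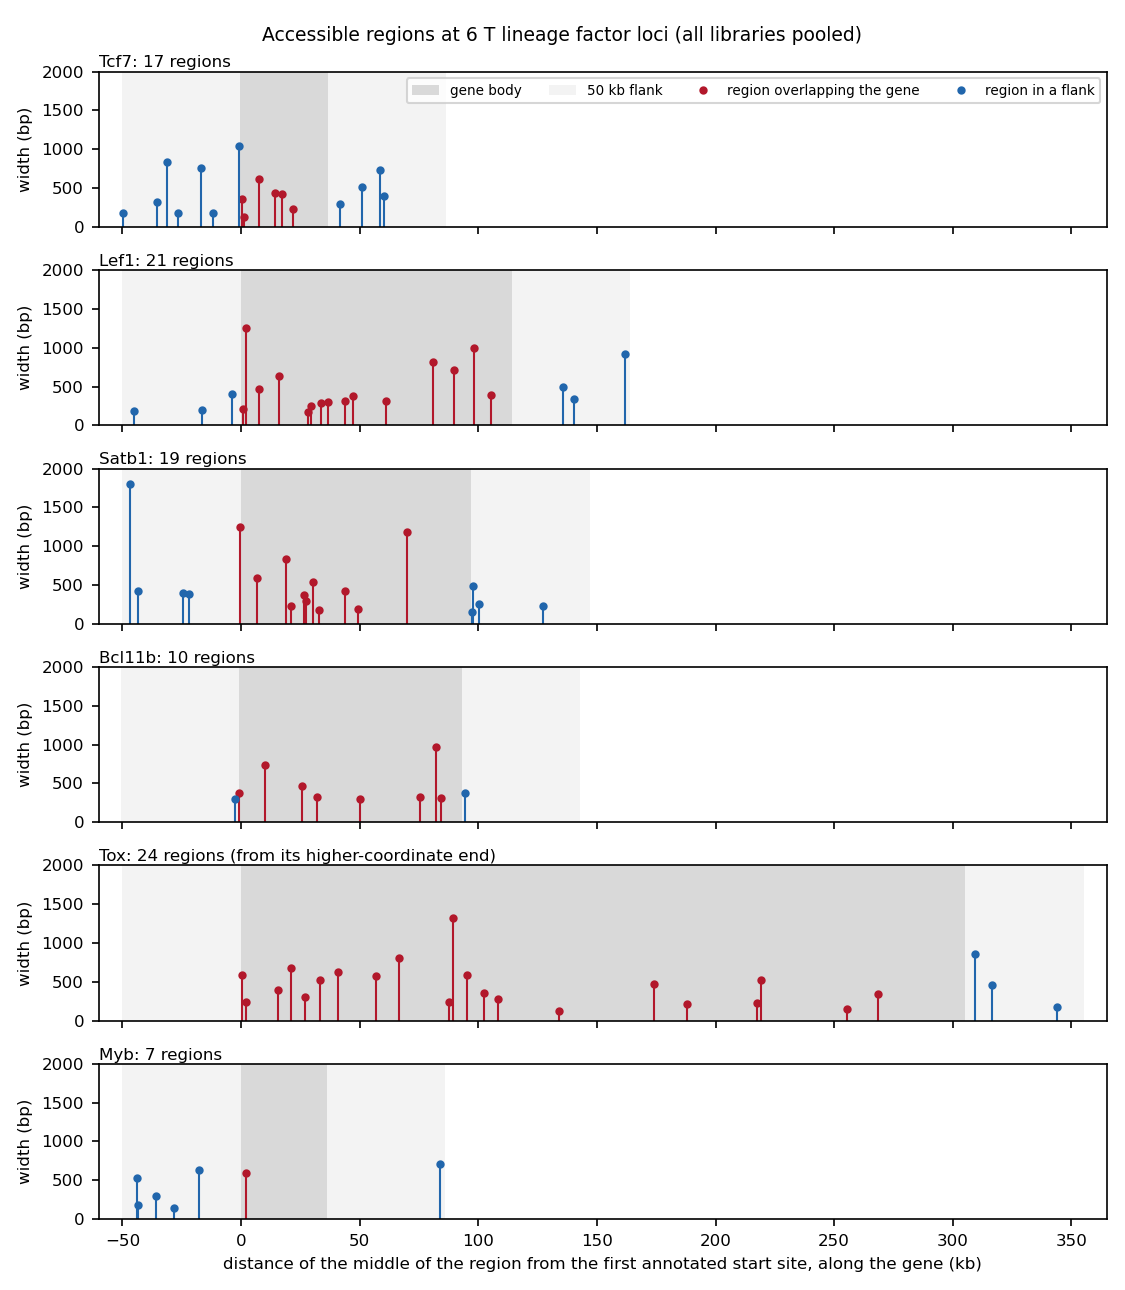
Accessible regions at the 6 loci; each stem stands at the middle of a region, measured in kb along the gene from the most upstream start site (for Tox from its higher-coordinate end), and its height is the width of the region in bp. Dark grey marks the gene body and light grey the 50 kb flanks. Most stems of Lef1 and Tox stand in the gene body, those of Tox more often nearer to its higher-coordinate end. Myb has 1 stem in its body and 5 upstream.

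The position of regions along the gene body was set beside that in other genes, without a test. By the middle of the region, 42 of 60 (70%) were nearer to the start than to the other end, against 60.9% of 15296 regions in other protein-coding genes of 30 to 320 kb. Away from gene ends the counts were 39 of 57 (68.4%) and 6875 of 12649 (54.4%). The counts by gene were 5 of 6 at Tcf7, 10 of 15 at Lef1, 8 of 10 at Satb1, 15 of 21 at Tox (from its higher-coordinate end), 3 of 7 at Bcl11b and 1 of 1 at Myb. The tables give no start or strand for Tox. Upstream and downstream flanks held equal numbers at Lef1, Satb1 and Bcl11b, while Tcf7 had 7 upstream and 4 downstream and Myb had 5 and 1.

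The regions of the 6 windows were wider than those of the list as a whole. Their median width was 391.5 bp (95% order-statistic interval 327 to 467 bp), against 294 bp (292 to 296 bp) for all regions. Away from every protein-coding gene end the medians were 388 bp (316 to 464 bp, 89 regions) and 262 bp (261 to 264 bp). Ends here are the outer ends of gene models. Regions over inner start sites, such as that of 1249 bp at Lef1, were therefore kept. The intervals cover counting error only, and neighbouring regions are not independent. By gene the medians ran from 354.5 bp at Bcl11b to 524 bp at Myb, and the intervals of all 6 overlapped. Widths from 124 bp (Tox) to 1797 bp (Satb1) were found, and 29.6% of the 98 regions were at least 536 bp, the upper quartile of the list. Neighbouring regions inside a window were 5.23 kb (Satb1) to 9.86 kb (Bcl11b) apart in the median, against 18.5 kb over the whole list. These are unlike measures, because gaps that cross the edge of a window were left out of the members' values.

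Bcl11b (chromosome 12, 107910403 to 108004145, 93.7 kb) had 10 regions within 50 kb and a further 39 up to 1 Mb past its 3' end. The gene body held 8 regions, the widest 967 bp at chr12:107920845-107921811, and each flank held 1. Past the 3' end, 40 regions lay within 1 Mb, against 31 within 1 Mb before the 5' end. The 2 sides differ in genes. Past the gene the stretch overlaps 1 protein-coding gene model (Gm52008), and 0 of the 40 regions lay within 1 kb of a protein-coding gene end. The other side overlaps 13 protein-coding genes, Setd3, Ccnk, Evl and Yy1 among them, and 6 of its 31 regions lay at their ends.

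The 40 regions were many for so empty a stretch. Over the 40614 stretches of 1 Mb next to an end of an autosomal protein-coding gene, the median was 32 regions (quartiles 20 and 45), and 64.8% had fewer than the stretch past Bcl11b. Of these, 1457 overlapped at most 1 protein-coding gene. They had a median of 15 regions (quartiles 12 and 20), and 98.2% had fewer than the stretch past Bcl11b. Many of these stretches overlap one another, so the shares are a description. Chromosome 12 as a whole carried 24.5 regions per Mb and the autosomes 26.3.

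Past Bcl11b the regions gathered in groups. Between 100 and 200 kb from the gene there were 9 regions, between 300 and 500 kb 2, and between 700 and 1000 kb 19. The densest 100 kb, chr12:107118518-107217560, held 14 regions with a median width of 387.5 bp and lay 693 to 792 kb past the gene. The 3 widest regions of the whole side were in it, at 907 bp (chr12:107123788-107124694), 839 bp (chr12:107146610-107147448) and 772 bp (chr12:107160002-107160773). The longest gap, 134 kb, lay on the side of this group toward the gene, with 1 region between the gap and the group. Further out, a region of 692 bp lay 863 kb past the gene, and a region of 389 bp, 824 kb past it, overlapped the long noncoding RNA gene Gm16086. In all, 4 of the 40 regions overlapped an annotated gene, 1 in Gm16086, 1 in Gm33236 and 2 in 4930465M20Rik, all long noncoding RNA genes, against 26 of 31 on the other side.

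The regions past Bcl11b had a lower median width than those on the other side. It was 311.5 bp (239 to 391 bp) past the gene and 449 bp (301 to 661 bp) before it. The intervals overlapped, which is not a test of a difference. Of the regions past the gene 12.5% were at least 536 bp wide, against 41.9% on the other side, where 6 of 31 lay at protein-coding gene ends. Over all regions on assembled chromosomes away from such ends, the median was 262 bp (261 to 264 bp) and 15.6% were at least that wide. The list does not show which gene a region acts on.

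**Figure D5:**
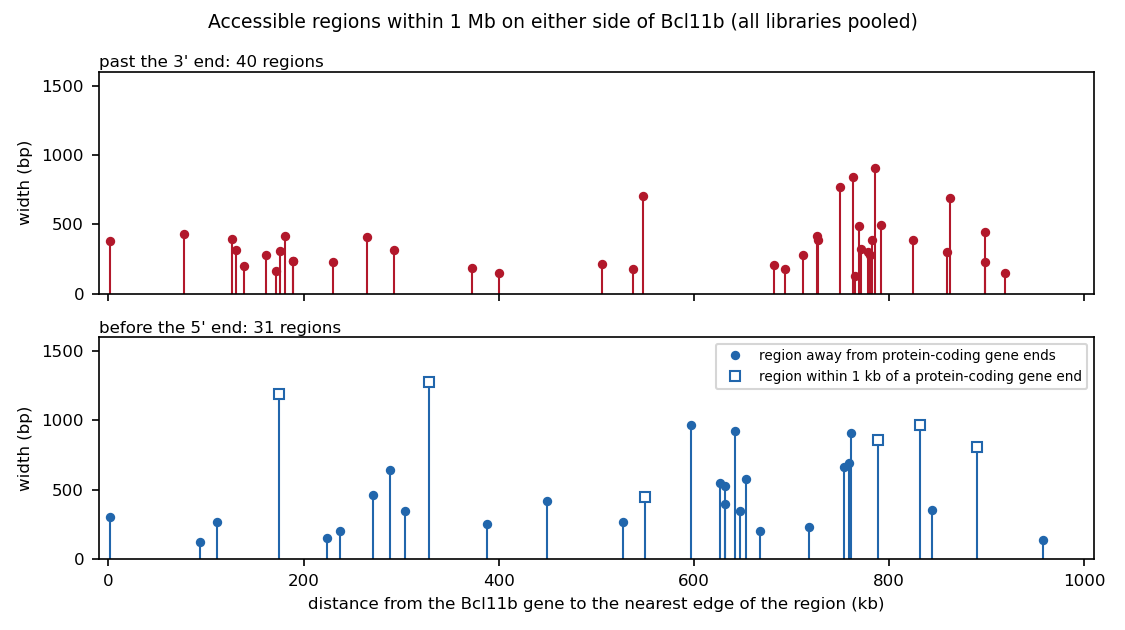
Accessible regions within 1 Mb past the 3' end of Bcl11b (upper panel, 40 regions) and before its 5' end (lower panel, 31 regions); the horizontal axis is the distance from the gene to the nearest edge of the region in kb and the stems give the width in bp. Open squares are regions within 1 kb of a protein-coding gene end, which are 6 in the lower and 0 in the upper panel; the group 693 to 792 kb past the gene stands out in the upper panel.

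Tcf7, Lef1, Bcl11b, Tox and Myb each had more regions per 100 kb than each of the paralogs they were compared with, by different margins; the smallest was that of Tox over Tox4, and the ratio was 1.45 for Bcl11b over Bcl11a and 1.46 for Tox over Tox2. Tcf7 and Lef1 had 12.4 and 9.81, against 3.43 at both Tcf7l1 and Tcf7l2, family members known from skin and gut. Myb had 5.14, against 3.01 at Mybl1, which acts in male germ cells, and 3.07 at Mybl2, which acts in dividing cells. For Myb this rested on the flanks: its body held 1 region, against 2 at Mybl1 and 1 at Mybl2, which are shorter genes. Tox had 5.92, against 4.07 at Tox2, 2.48 at Tox3 and 5.16 at Tox4, and Bcl11b had 5.16 against 3.55 at Bcl11a, a factor of B cells and neurons. The 8 paralogs had a median of 3.43, close to that of all genes, and 2 of 8 were above the median of all genes. A region lay at a gene end of 5 of 6 members (83.3%), of 7 of 8 paralogs (87.5%) and of 52.6% of all genes.

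Other regulators of early T cell and blood development had a median density near that of the members. The members' median was 7.78 regions per 100 kb and that of the 25 other regulators 7.47, against 3.57 over all protein-coding genes. The 13 T cell markers had a higher median than the members, 10.5, and 13 of them were above the median of all genes. Neighbours among them, such as Cd3d, Cd3e and Cd3g, were counted singly and can share regions. Of the 25, 22 were above the median of all genes and 18 had a region at a gene end. Id3 and Klf2, regulators of naive T cell quiescence and homing, had 16.7 and 16.6; these genes are 1571 and 2593 bp long, so their windows are nearly all flank. Ikzf1 and Ets1, lymphoid transcription factors, had 12.8 and 12.2, on either side of Tcf7 at 12.4. The 3 below the median of all genes were Mef2c, Erg and Zbtb16, at 3.04, 2.75 and 2.46. Lyl1, Spi1, Lmo2 and Hhex of the same list were above it, at 10.65, 4.498, 4.033 and 3.777. Whether density follows the cell type in which a regulator acts was not tested.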

How the data were processed

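Open chromatin was measured by ATAC-seq in 4 libraries (2 DDX55 KO, 2 WT). The deposited file used here is 1 list of regions (sequence name, start, end), cited for all libraries in the labels; it holds no counts or scores. Tools listed in the submitters' processing notes are fastp 0.12.4, Bowtie2, SAMtools 1.15.1 and MACS3 3.0.0b1, with build mm10, the authors' settings for the peak threshold, duplicates, the cut-site shift and the joining of peaks being not given in the sources used here. Start positions were converted to 1-based. Genes, start sites and promoter sequences came from RefSeq tables of GRCm38.p6; strand was taken from the start site table. A region counted with 1 bp of overlap. The background was all protein-coding genes on assembled chromosomes. The overlap counting was tested on simulated data. Analyses used Python 3.11.15, pandas 2.3.3, numpy 2.4.6 and scipy 1.17.1.

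The members, gene lists and windows were chosen with earlier results of these data known; the base composition classes and the 1 Mb stretches with few genes were chosen after the regions were seen. Named genes were the members, 8 paralogs (1 gene of the rule is not reported here), 25 other regulators, genes overlapping a member window, and the widest regions and longest gaps; genes named further from Bcl11b were chosen after their values were seen. No test was run, because a pooled list has no replicates; values are given beside those of all genes.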

Additional observations from a re-analysis of the deposited data

How the results depend on the processing

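No paired analysis was possible because the pooled list holds no value per library, and leaving out a replicate was not possible for the same reason. Counting the gene body alone gave 62 regions over the 6 genes in place of 98, since 36 lay in flanks. Within 500 kb past Bcl11b there were 16 regions (12 on the other side) in place of 40 (31), since most lay further out. The other 24 values for these results under alternatives stayed within 1.5 times the main count or within the interval of the median width. Values of single genes moved more. Tcf7 had 11 regions with flanks of 20 kb and 6 in the body, in place of 17. Satb1 had 11 in the body in place of 19. Myb had 2, 13 and 1 with flanks of 20 kb, of 100 kb and in the body, in place of 7. Bcl11b had 8.53 regions per 100 kb in the body, in place of 5.16. The density of Myb fell below the median of all genes with flanks of 20 kb and in the body alone, so 5 of 6 members were then above it. Regions at gene ends were found at 4 members with windows of 500 bp (without Lef1) and at 6 with windows of 2 kb. Depth per library, which sets how many weak regions are found, is unknown.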

Other observations

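On the 5' side of Bcl11b, where 26 of 31 regions overlapped annotated genes, 8 regions 596 to 667 kb from the gene lay in Evl, which encodes an actin regulator.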
